A study of Mus musculus with 14 samples.

Results

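The transcriptome of Setd2KO spermatocytes was compared with that of WT spermatocytes. The genes described are the autosomal genes that averaged 1 FPKM or more (fragments for each kilobase of a transcript in each megaread mapped, so a level per length) in Setd2KO or WT, 9784 of the 20626 genes in the tables. Of these, 8883 reached 1 FPKM in both genotypes, 751 in Setd2KO alone and 150 in WT alone. A further rule set apart 464 spermatid-specific genes, whose mean in WT round spermatids (RS) was at least 20 FPKM and 20 times that in WT spermatocytes, and results are given with them and, for the other 9320 genes, without them. The cells were pachytene and diplotene spermatocytes (PD), isolated by flow sorting on DNA dye fluorescence (Hoechst and propidium iodide) from adult C57BL/6J mice labelled Setd2KO or WT, with 2 polyadenylated RNA libraries for each genotype. RS of both genotypes, also with 2 libraries each, were set beside them, as was 1 list of H3K36me3 peaks for each group. The labels give no age beyond adult and name neither the deleted part of Setd2 nor the Cre line. They leave unsaid whether 1 or several animals gave the libraries of a genotype, and the p-values therefore rest on differences between libraries, which may be technical.

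Setd2 is the methyltransferase that adds the third methyl group to lysine 36 of histone H3, and it travels with elongating RNA polymerase II, so that H3K36me3 lies over the bodies of transcribed genes. The mark is read by DNA methyltransferases, splicing regulators and complexes that silence internal start sites. Pachytene and diplotene spermatocytes are in meiotic prophase, when homologous chromosomes are synapsed and recombined, and they transcribe many genes whose products are used only after meiosis.

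The RNA level of Setd2 itself was close in the genotypes. It had 21.0 and 21.4 FPKM in Setd2KO spermatocytes, against 21.2 and 19.1 FPKM in WT spermatocytes, and the ranges overlapped (adjusted p = 0.736). This gene-level value does not check the labels, since the part deleted is not given and reads from the rest of the transcript would still be counted. The peak lists differed with the genotype: a PD Setd2KO peak lay over 179 of the 9784 genes (1.83%) and a PD WT peak over 8209 (83.9%). Spermatocyte markers were high in all 4 PD libraries, among them the germ cell lactate dehydrogenase Ldhc at 1547 and 1471 FPKM in Setd2KO and 1364 and 1962 FPKM in WT, and the meiotic chaperone Hspa2 at 529 and 547 FPKM in Setd2KO and 448 and 508 FPKM in WT. Tex101 and Piwil1, expressed in spermatocytes and low in RS, had 171 and 196 FPKM and 152 and 162 FPKM in Setd2KO, against 187 and 164 FPKM and 186 and 148 FPKM in WT.

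The libraries stood apart in 2 ways. Depth worked back from the values was 61.9 and 69.4 megareads in PD Setd2KO and 51.1 and 51.7 megareads in PD WT, and the FPKM of all genes summed to 221211 and 224404 in Setd2KO, but to 181915 in WT library 1 and 225288 in WT library 2. RNA typical of RS was also unevenly spread, taken as the level of the spermatid-specific genes relative to RS of the same genotype. The median was 13% and 7.69% of the Setd2KO RS level in Setd2KO libraries 1 and 2. In WT libraries 1 and 2 it was 1.96% and 2.76% of the WT RS level. The rule that chose these genes holds down their WT spermatocyte level relative to WT RS, but not their Setd2KO level. The contrast between the genotypes is therefore partly set by the rule and is a description. Spermatid markers did not all go 1 way. The sum of 18 round spermatid markers was 267 and 146 FPKM in Setd2KO and 51.7 and 69.7 FPKM in WT. That of 17 elongating and condensing spermatid markers was 893 and 798 FPKM in Setd2KO and 835 and 1037 FPKM in WT, which overlap. Marker sums of somatic cells were low, for example at 8.73 and 10.1 FPKM in Setd2KO and 6.23 and 6.81 FPKM in WT for 16 Sertoli cell markers, of which Sox9, Gata4, Fshr and Gata1 were under 0.1 FPKM. In sorted bulk libraries, more cells of a type and more RNA per cell cannot be told apart.

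More genes were called higher than lower in Setd2KO, mostly by small amounts. Among changes past 2-fold relative to the median of all genes, rises were more numerous over all 9784 genes, and falls were more numerous outside the spermatid-specific genes. Changes were tested with limma on log2(FPKM + 1), a scale that understates the change of low genes, and a gene was called when its adjusted p was under 0.05. Of the 9784 genes, 2859 (29.2%) were called higher and 703 (7.19%) lower, against 29.8% and 6.3% of all 11452 genes tested. Without the spermatid-specific genes, 2458 (26.4%) were called higher and 699 (7.5%) lower. The genes called higher had a median of 4.88 FPKM in Setd2KO and 3.04 FPKM in WT, and those called lower 4.36 FPKM in Setd2KO and 7.91 FPKM in WT. The median change of all tested genes was 0.19 in log2, and all changes below are given relative to it, while the calls are those of the test against 0. A gene a little above the median could therefore be called higher, and one had to lie further below it to be called lower.

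The split of calls moved with the scale and with single libraries. Higher calls made up 80.3% of calls on the deposited scale, 62.2% after scaling to the upper quartile (2123 higher, 1289 lower), 61.0% after scaling to equal sums and 45.3% after quantile normalization (1408 higher, 1703 lower). Among the 6355 genes that averaged at least 5 FPKM, where genes that pass the filter on low levels through 1 genotype weigh less, 1366 were called higher and 432 lower. Leaving out Setd2KO library 1 gave 1876 higher and 374 lower, leaving out Setd2KO library 2 gave 1701 and 473, leaving out WT library 1 gave 1969 and 1028, and leaving out WT library 2 gave 3648 and 576. Of all called genes, 219 were at least 2-fold higher and 164 at least 2-fold lower relative to the median. The balance between these turned on single libraries, with 89 higher and 160 lower without Setd2KO library 1 and 347 higher and 177 lower without Setd2KO library 2, and it was 40 higher and 192 lower when the RS share of each library was subtracted. Of the called genes that were not spermatid-specific, 164 were at least 2-fold lower and 37 at least 2-fold higher relative to the median, and across the scalings and omitted libraries these counts were 152 to 205 lower and 32 to 64 higher.

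**Figure D1:**
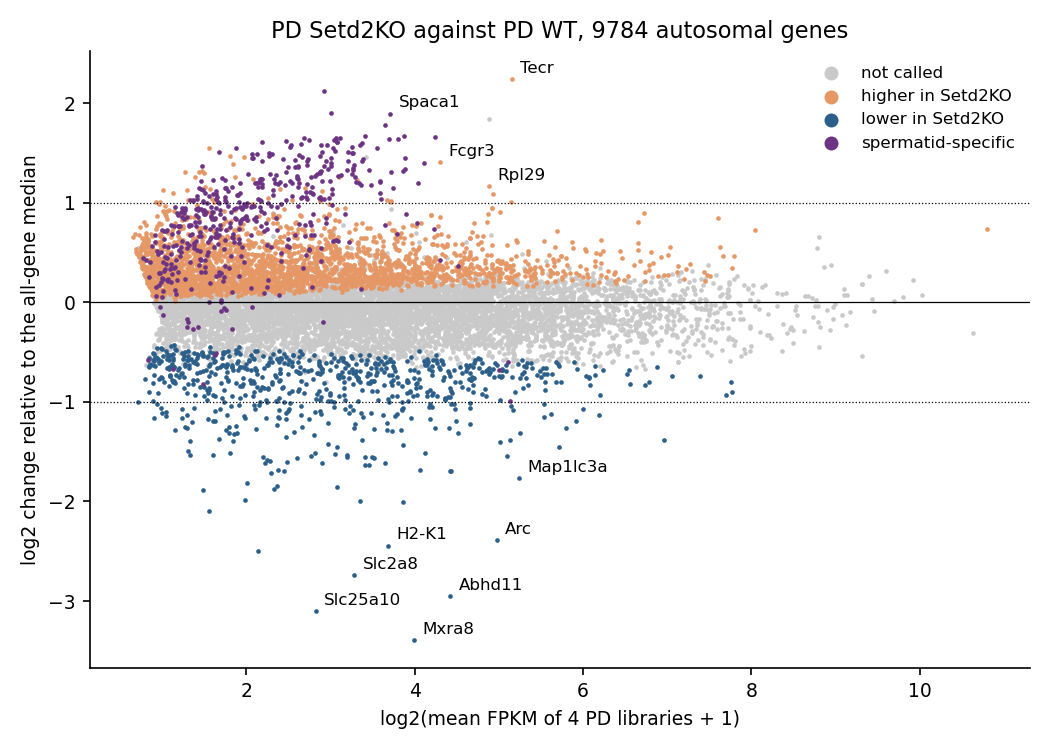
Change in Setd2KO against WT spermatocytes (vertical axis, log2 relative to the all-gene median) by the mean level of the 4 PD libraries (horizontal axis, log2(FPKM + 1)) for the 9784 genes, coloured by call and class, with dotted lines at 2-fold. The 164 genes called at least 2-fold lower reach further from 0 than the 37 called at least 2-fold higher, and the spermatid-specific genes lie mostly above 0.

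The largest falls were in single genes of unlike function, among them metabolite carriers, membrane proteins and an MHC class I chain. The glucose and fructose transporter Slc2a8 (chr2:32828509-32837576, minus strand, mm9) and the fatty acid elongation enzyme Tecr (chr8:86095597-86118390, minus strand, mm9) are shown first because each changed far, in opposite directions, and by nearly the same size in both cell types. Slc2a8 had 1.60 and 2.10 FPKM in Setd2KO spermatocytes, against 15.1 and 16.2 FPKM in WT, and fell by 2.74 in relative log2 (SE 0.13, adjusted p = 5.54e-06). Tecr had 53.9 and 64.4 FPKM in Setd2KO, against 10.6 and 9.57 FPKM in WT, a rise of 2.24 (SE 0.15, adjusted p = 6.12e-06). In RS, Slc2a8 averaged 0.887 FPKM in Setd2KO and 12.3 FPKM in WT, and Tecr averaged 50.7 FPKM in Setd2KO and 10.0 FPKM in WT, with relative changes of -2.83 and 2.22. A PD WT H3K36me3 peak covered 73.0% of Slc2a8 but 3.83% of Tecr. The 150 bases upstream of each start are given from RefSeq (build GRCm38.p6, chr2:32982084-32982233, minus strand, and chr8:83594492-83594641, minus strand), written along the gene, with CCAAT boxes (CCAAT on either strand) and, in Tecr, a MYB site (CAACTG on either strand) in capitals.
Slc2a8: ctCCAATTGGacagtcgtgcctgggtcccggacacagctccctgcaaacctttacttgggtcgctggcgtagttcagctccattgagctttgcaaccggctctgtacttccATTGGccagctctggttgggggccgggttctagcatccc
Tecr: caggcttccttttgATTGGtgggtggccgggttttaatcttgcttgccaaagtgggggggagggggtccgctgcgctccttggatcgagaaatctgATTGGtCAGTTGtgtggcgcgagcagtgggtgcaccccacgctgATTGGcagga
Each stretch held 3 CCAAT boxes, a pair of which overlap in Slc2a8. At least 1 was in 40.1% of the 7935 matched promoters of the genes described, in longer windows of 300 bases.

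Among the other large falls, the membrane adhesion protein Mxra8 (chr4:155213789-155218211, plus strand, mm9) had 1.66 and 2.60 FPKM in Setd2KO, against 23.2 and 32.2 FPKM in WT, a relative change of -3.39 (SE 0.18, adjusted p = 5.54e-06). The mitochondrial dicarboxylate carrier Slc25a10 had 0.864 and 0.461 FPKM in Setd2KO, against 9.91 and 13.1 FPKM in WT (-3.10, SE 0.16, adjusted p = 5.54e-06). The mitochondrial hydrolase Abhd11 had 4.35 and 4.62 FPKM in Setd2KO and 31.0 and 41.9 FPKM in WT (-2.95). In all 3 the lowest WT library stood several times above the highest Setd2KO library. H2-K1, a heavy chain of classical MHC class I, had 3.23 and 3.67 FPKM in Setd2KO and 19.3 and 21.1 FPKM in WT (-2.44, SE 0.14, adjusted p = 6.12e-06). Arc, known in neurons as a synaptic protein that forms capsids, had 10.3 and 9.93 FPKM in Setd2KO and 41.7 and 59.7 FPKM in WT (-2.39, SE 0.18, adjusted p = 3.88e-05). Map1lc3a, an LC3 protein of the autophagosome membrane, had 15.8 and 19.9 FPKM in Setd2KO and 44.7 and 67.1 FPKM in WT (-1.76, SE 0.20, adjusted p = 0.000440). In each of these genes both WT libraries lay above both Setd2KO libraries.

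Chrne, the epsilon subunit of the muscle acetylcholine receptor, averaged 0.462 FPKM in Setd2KO and 6.31 FPKM in WT, and it overlaps another gene, as does Nt5c, a deoxyribonucleotidase (0.762 FPKM in Setd2KO, 5.17 FPKM in WT). Reads of overlapping genes may have been split between them, since the strand used in counting is not given. The other named falls were Fam89b, Reep2, a protein that shapes the endoplasmic reticulum, Tlcd1, which acts on membrane phospholipids, the thioredoxin-like Sh3bgrl3 and the neuropeptide precursor Nmb. Their relative changes lay between -2.01 in Fam89b and -1.82 in Nmb. All 14 named falls kept their calls in every setting tried. Body cover by PD WT peaks differed among them: Arc, Fam89b and Nmb were covered over 100% of their length and Mxra8 over 99.3%, while Chrne was covered over 0%. In PD Setd2KO none of these 4 genes with full or nearly full cover had a peak.

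**Figure D2:**
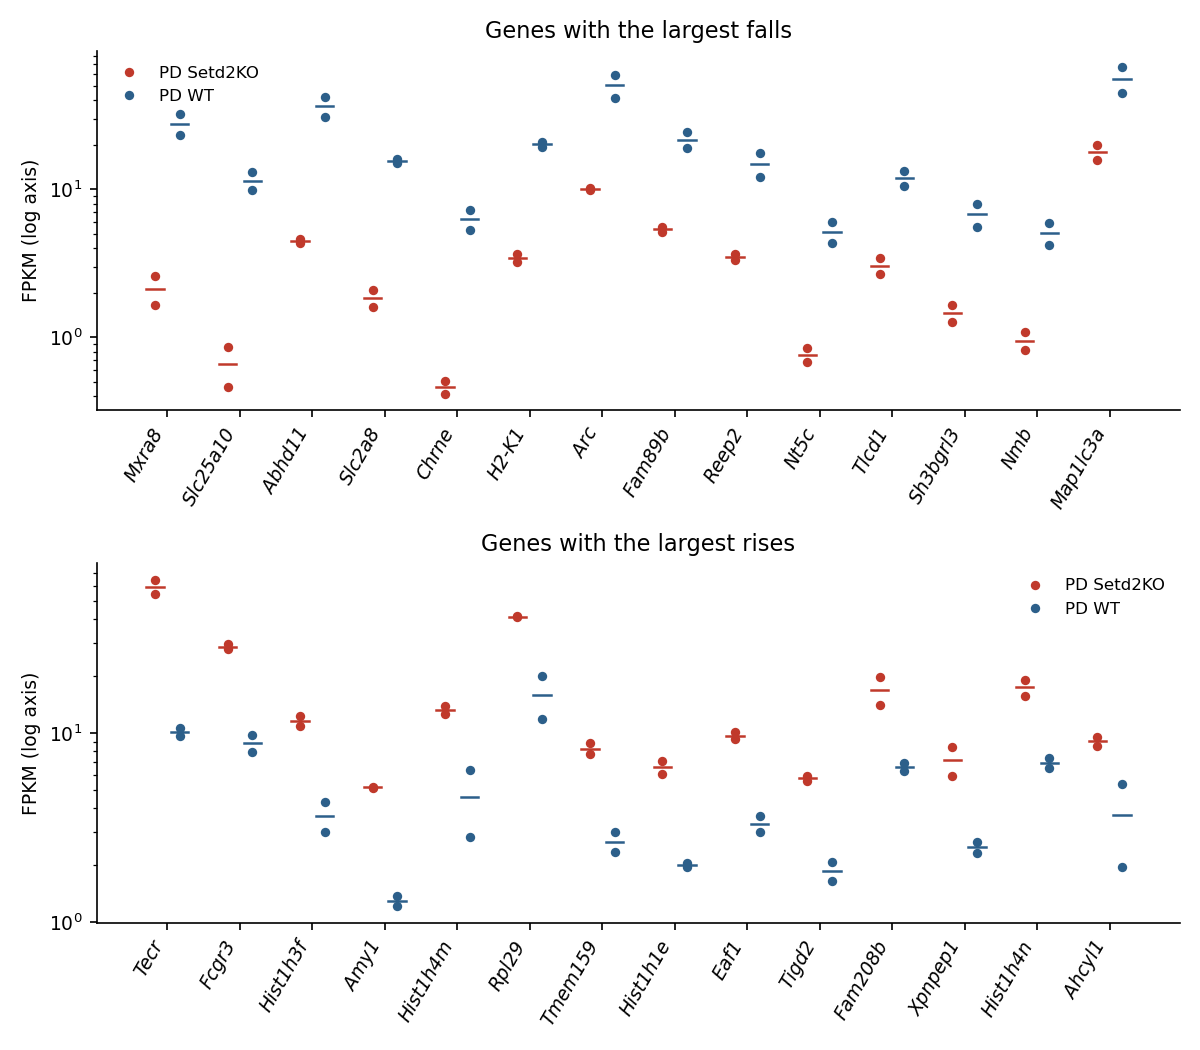
Level in each of the 4 PD libraries (FPKM, log scale), with Setd2KO left of WT, for the named genes with the largest falls (upper panel) and rises (lower panel), with points for libraries and short lines for means. In the falling genes both WT points lie above both Setd2KO points, and in the rising genes both lie below.

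The 164 genes past 2-fold lower had a median of 3.47 FPKM in Setd2KO and 9.49 FPKM in WT, and 27 of them were under 1 FPKM in Setd2KO. They were short, with a median length of 7888 bp against 20764.5 bp over all 9784 genes. A PD WT H3K36me3 peak lay over 147 of them (89.6%) and over 8131 of all 9320 genes that are not spermatid-specific. Their median cover was 77.9%, and 5039 of the 9320 genes were covered over more than 75% of their length. Of the 164, 125 (76.2%) were also called lower in RS, where 21.8% of all tested genes were called lower, and their median relative change in RS was -0.84. The PD and RS comparisons share no library, but both use the same estimate of the spread of each gene, so their calls are not independent. Over all 699 genes called lower in PD, 342 (48.9%) were called lower in RS and 50 were called higher there, while 20.2% of the 1693 genes called lower in RS were called lower in PD. The size of the effect differed between PD and RS for 64 of the 164 by the test of the difference, which called 31.3% of the 9784 genes and 35.1% of all tested genes.

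Rises past 2-fold outside the spermatid-specific genes were fewer and started from low levels: the 37 genes had a median of 4.39 FPKM in Setd2KO and 0.88 FPKM in WT, and 20 of them were under 1 FPKM in WT. Without Setd2KO library 2, WT library 1 or WT library 2 there were 64, 57 and 58. Of the 37, 21 (56.8%) were also called higher in RS, where 20.9% of all tested genes were, and 10 (27.0%) lay under a PD WT peak. The low-affinity Fc receptor gene Fcgr3 had 29.3 and 27.7 FPKM in Setd2KO, against 7.88 and 9.70 FPKM in WT (1.41, SE 0.13, adjusted p = 4.07e-05), and it rose by 1.91 in RS. Amy1, which codes for salivary amylase, had 5.14 and 5.20 FPKM in Setd2KO, against 1.38 and 1.21 FPKM in WT (1.24, SE 0.10, adjusted p = 1.67e-05), with a relative change of 0.29 in RS. Tigd2, a gene derived from a pogo transposase, had 5.88 and 5.60 FPKM in Setd2KO and 1.65 and 2.06 FPKM in WT (1.05), and rose further in RS, by 2.39. Eaf1, which binds the ELL elongation factors, had 9.25 and 10.1 FPKM in Setd2KO and 3.64 and 3 FPKM in WT (1.11), whereas it fell by 0.46 in RS. In all 4 genes the lower Setd2KO library stood above the higher WT library.

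The ribosomal protein gene Rpl29 rose to 40.7 and 41.3 FPKM in Setd2KO, against 11.8 and 20.0 FPKM in WT (1.17), and Tmem159, a lipid droplet protein, to a mean of 8.26 FPKM in Setd2KO, against 2.66 FPKM in WT (1.15). The aminopeptidase Xpnpep1 averaged 7.16 FPKM in Setd2KO and 2.48 FPKM in WT (1.02), and Fam208b, which overlaps Gdi2, averaged 16.9 FPKM in Setd2KO and 6.63 FPKM in WT (1.02). Both of these had far higher levels in RS, at 37.4 FPKM in Setd2KO and 42.6 FPKM in WT for Xpnpep1 and 88.7 FPKM in Setd2KO and 97.3 FPKM in WT for Fam208b. Ahcyl1, a regulator of inositol trisphosphate receptors, was the least steady: it had 9.50 and 8.55 FPKM in Setd2KO, against 5.37 and 1.95 FPKM in WT (1.02, adjusted p = 0.0139), and without WT library 2 its change was 0.40 (adjusted p = 0.128). It also missed the threshold after upper-quartile, equal-sum and quantile scaling.

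**Figure D3:**
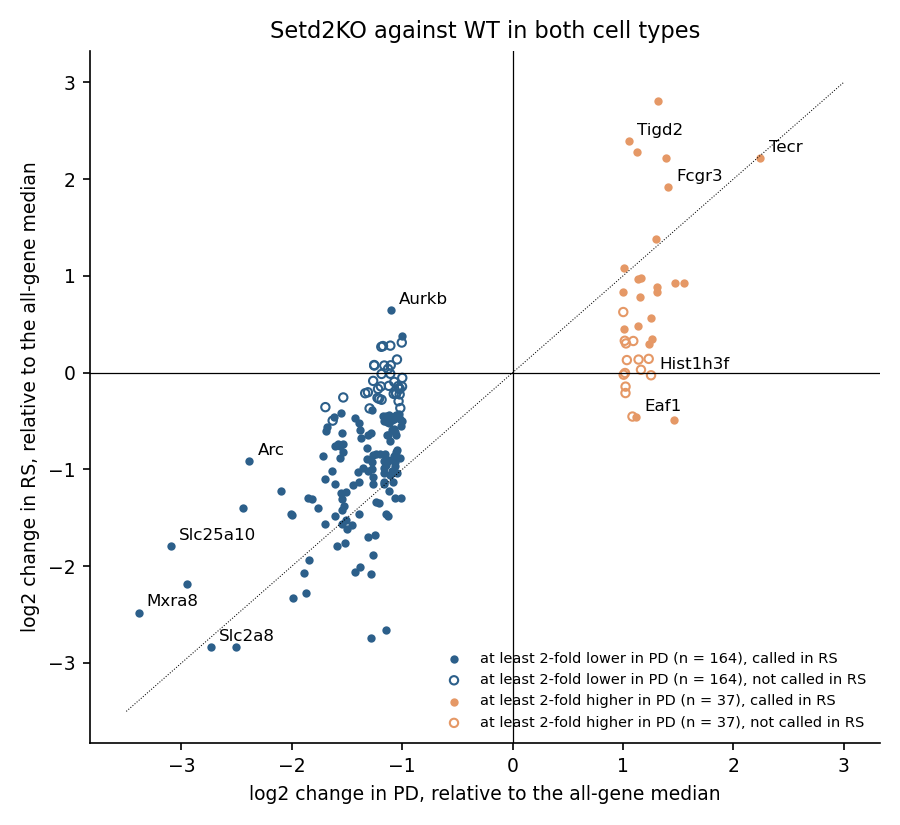
Relative log2 change of Setd2KO against WT in PD (horizontal axis) and in RS (vertical axis) for the genes called at least 2-fold lower (164) or higher (37) in PD and not spermatid-specific, filled where called in RS. Genes at least 2-fold lower in PD lie mostly below 0 in RS too (125 of 164 called lower there), while Hist1h3f and Eaf1 stand at 0 or below in RS.

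Most genes of the histone clusters, which chiefly encode the histones made in S phase and also hold a few testis-specific ones, were called higher in Setd2KO spermatocytes. Of 63, 47 were called higher (3 of 4 linker H1 genes, 13 of 18 H2A, 12 of 17 H2B, 9 of 12 H3 and 10 of 12 H4 genes) against 29.8% of all tested genes, and their median relative change was 0.60. Of the 47, 9 reached 1 FPKM in Setd2KO alone and so had to differ, and among the 54 that reached it in both genotypes 38 were called higher. Their FPKM summed to 4701 and 4718 in Setd2KO libraries 1 and 2, against 2428 and 3418 in WT libraries 1 and 2. The testis-specific Hist1h2ba, Hist1h2aa and Hist1h1t made up most of each sum, and the other 60 genes summed to 1489 and 1491 FPKM in Setd2KO and 713 and 1093 FPKM in WT, with 45 called higher, 14 not called and 1 lower. The summed level of 15 spermatogonial markers was also higher, at 47.7 and 58.7 FPKM in Setd2KO and 27.7 and 30.1 FPKM in WT. The single gene Id4 made up most of each of these sums, and 3 of the 5 markers among the genes described reached 1 FPKM in Setd2KO alone. The part of spermatogonia in the histone levels was not tested. Of the histone genes, 51 of the 63 had both Setd2KO libraries above both WT libraries. The share of all genes that did so is not given here. WT library 1 was below WT library 2 in 60 of the 63, and also in the FPKM sum of all genes (181915 against 225288). Without WT library 1, 34 genes were called higher, and without WT library 2, 56, and across all scalings the count was 38 to 43. In RS the sums were 382 and 379 FPKM in Setd2KO and 388 and 342 FPKM in WT. There 9 of the 63 genes were called in either direction, against 20.9% of all tested genes called higher and 21.8% lower. For 30 of the 63 the PD effect differed from the RS effect, against 35.1% of all tested genes. Near-identical copies share reads, so single members are uncertain, and most replication-type histone mRNAs lack the poly(A) tail by which these libraries were enriched.

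The most abundant histone gene was Hist1h2ba, the testis-specific H2B, with 2313 and 2341 FPKM in Setd2KO, against 1030 and 1453 FPKM in WT (0.74, SE 0.22, adjusted p = 0.00895). Its call was lost without WT library 1 (0.55, adjusted p = 0.0587) and when the PD libraries were fitted alone (adjusted p = 0.0986). Its neighbour Hist1h2aa, the testis-specific H2A, had 163.6 and 163.8 FPKM in Setd2KO and 89.0 and 105.4 FPKM in WT (0.56, adjusted p = 0.00256). Among linker histones, Hist1h1e had 7.06 and 6.08 FPKM in Setd2KO and 1.95 and 2.05 FPKM in WT (1.14), Hist1h1c had 11 and 8.92 FPKM in Setd2KO and 3.45 and 4.21 FPKM in WT (0.99), and Hist1h1a had 21.5 and 24.9 FPKM in Setd2KO and 12 and 12.8 FPKM in WT (0.66). The testis-specific H1 gene Hist1h1t, by contrast, had 734 and 723 FPKM in Setd2KO and 596 and 766 FPKM in WT, which overlap (-0.08, adjusted p = 0.619). The largest rises were in Hist1h3f, with 10.8 and 12.3 FPKM in Setd2KO and 2.99 and 4.30 FPKM in WT (1.25), and in Hist1h4m, with 12.6 and 13.8 FPKM in Setd2KO and 2.80 and 6.40 FPKM in WT (1.23), and Hist1h4n rose by 1.02. Without WT library 1, Hist1h4m stood at 0.81 (adjusted p = 0.03). Hist2h2be alone was called lower, with 9.12 and 8.39 FPKM in Setd2KO and 10.6 and 14.6 FPKM in WT (-0.66, adjusted p = 0.0382), and this call was lost without either Setd2KO library (adjusted p = 0.0781 and 0.158) and without WT library 2 (0.193). H2afx, a variant histone of the DNA damage response whose gene lies outside the clusters, had 142 and 141 FPKM in Setd2KO and 51.4 and 84.5 FPKM in WT (0.90, adjusted p = 0.00333).

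Promoters of 2 histone genes are given because most of the family was called higher (RefSeq, build GRCm38.p6, chr13:23622559-23622708, minus strand, where RefSeq names the gene H1f4, and chr13:21811596-21811745, plus strand, named H4c17). The 150 bases upstream of the start are written along the gene, with CCAAT boxes, GC boxes (GGGCGG on either strand) and TATA boxes (TATAAA on either strand) in capitals.
Hist1h1e: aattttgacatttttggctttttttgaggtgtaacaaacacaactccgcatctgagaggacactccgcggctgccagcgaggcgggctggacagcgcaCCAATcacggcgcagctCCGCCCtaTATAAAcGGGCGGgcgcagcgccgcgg
Hist1h4m: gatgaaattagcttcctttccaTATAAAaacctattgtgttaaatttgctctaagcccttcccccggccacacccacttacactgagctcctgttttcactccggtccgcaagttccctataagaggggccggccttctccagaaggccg
The TATA box of Hist1h1e lies close to the start, and the match in Hist1h4m lies far upstream. In windows of 300 bases (250 before and 50 after the start), a CCAAT box was in 84.5% of 58 matched histone promoters and in 40.1% of the 7935 matched promoters of the genes described, and a TATA box was in 56.9% and 6.96%. Over all 27025 RefSeq promoters the shares were 37.9% for CCAAT and 14.2% for TATA. These are matches of letters and were not tested as sites.

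**Figure D4:**
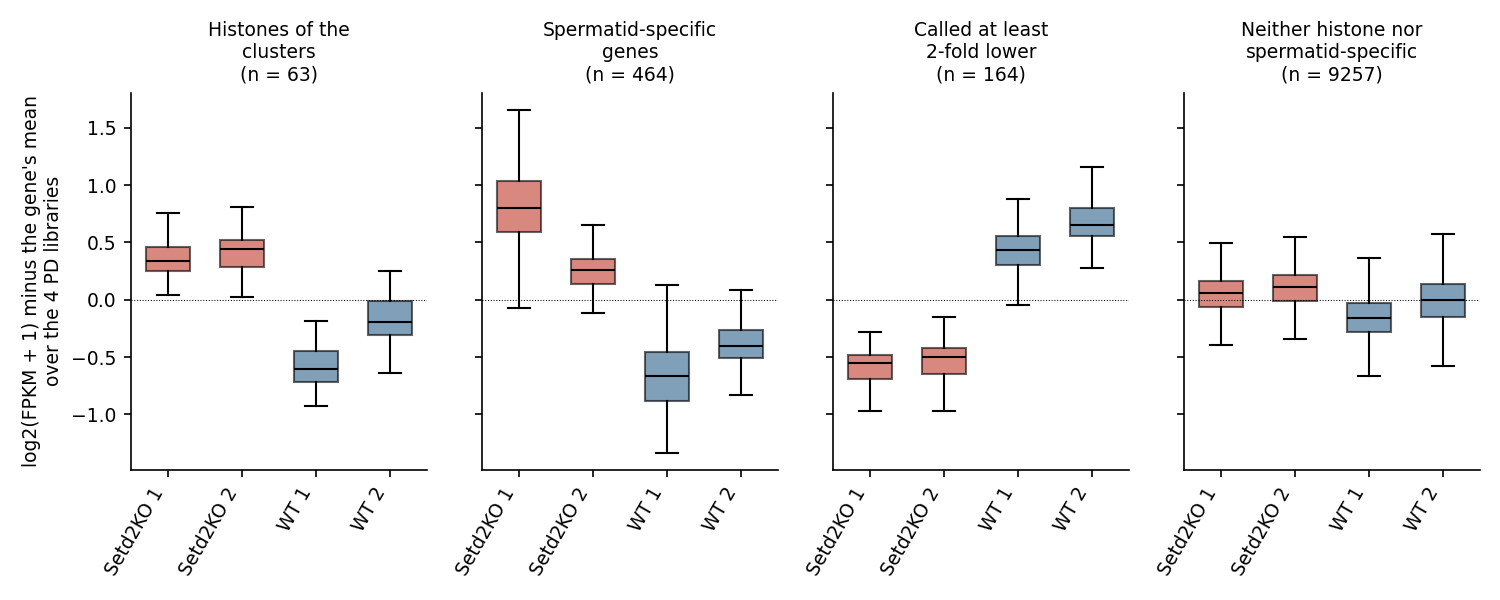
Level in each of the 4 PD libraries, with Setd2KO left of WT, as log2(FPKM + 1) minus the mean of the gene over these libraries, for the histones of the clusters, the spermatid-specific genes, the 164 genes called at least 2-fold lower and all genes in neither of the first 2 classes. Boxes span the quartiles with the median as a line, and whiskers reach the last value within 1.5 box lengths. Histones had medians of 9.12 and 8.92 FPKM in Setd2KO and 3.34 and 5.57 FPKM in WT, and spermatid-specific genes 5.20 and 3.14 FPKM in Setd2KO and 1.28 and 1.70 FPKM in WT.

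Of the 464 spermatid-specific genes, 401 were called higher, 4 lower and 59 in neither direction, with a median relative change of 0.88. The shares over all tested genes were 29.8% higher and 6.3% lower. Of the 464, 149 reached 1 FPKM in Setd2KO alone. The rule that chose the 464 uses their WT spermatocyte level, and these 149 passed the filter through their Setd2KO level. The counts are therefore a description. Spaca1, an acrosomal membrane protein of sperm, had 26.8 and 13.8 FPKM in Setd2KO, against 2.92 and 4.85 FPKM in WT (1.89), with RS means of 179 FPKM in Setd2KO and 187 FPKM in WT. Tmco5 had 25 and 13.3 FPKM in Setd2KO and 3.41 and 4.5 FPKM in WT (1.78), and the kinesin Kif2b had 28.2 and 16 FPKM in Setd2KO and 4.17 and 6.29 FPKM in WT (1.67). In all 3, Setd2KO library 1 was the highest, in the order of the RS shares of the libraries. The shares were taken from the class to which these 3 genes belong, so the shared order is no separate support. When each library's share of the RS level was subtracted from every gene, the change of Spaca1 was 1.09 (adjusted p = 0.0897), that of Tmco5 was 0.40 (adjusted p = 0.185) and that of Kif2b was -0.05. The share was set as the median over the spermatid-specific genes themselves. The typical rise of this class is thus removed by construction, and the loss of these calls is no test of their source. Under that subtraction 1567 of the 9784 genes were called higher and 975 lower. At the edge of the rule, Stpg1 (RS WT 19.9 times PD WT), Fam110a (19.5) and Prm2 (19.3) stayed outside and Tuba4a (20.2), Fscn3 (20.3) and Ace (20.5) fell inside, and their relative changes ran from -1.38 in Prm2 to 0.52 in Stpg1.

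Several genes of early germ cells were higher in Setd2KO spermatocytes. Of 15 spermatogonial markers, 5 reached 1 FPKM, and these were called higher (median 0.54), but Stra8, Dmrt1 and Dnmt3b reached it in Setd2KO alone, so that the count is not support for a rise of the list. Id4, a regulator kept on in spermatogonial stem cells, had 31.9 and 35.9 FPKM in Setd2KO and 18.9 and 21.1 FPKM in WT (0.54, adjusted p = 0.00197). Stra8, which drives entry into meiosis, had 2.69 and 2.97 FPKM in Setd2KO and 0.511 and 0.306 FPKM in WT (1.25, SE 0.09, adjusted p = 8.71e-06), 6.93 times the WT mean. The germ cell transcription factor Dmrt1 had 1.04 and 1.71 FPKM in Setd2KO and 0.478 and 0.404 FPKM in WT (0.52, adjusted p = 0.00200), and 0.33 without Setd2KO library 2. Dnmt3b, a DNA methyltransferase that binds H3K36me3, had 1.66 and 2.07 FPKM in Setd2KO and 0.983 and 0.747 FPKM in WT (0.42, adjusted p = 0.00126), and 0.27 without WT library 2. After quantile normalization Dmrt1 and Dnmt3b missed the threshold, as did Uchl1 (adjusted p = 0.0556). Uchl1, a ubiquitin hydrolase of spermatogonia, averaged 8.13 FPKM in Setd2KO and 4.35 FPKM in WT (0.55), but 0.28 without Setd2KO library 2 (adjusted p = 0.0584), 0.84 without Setd2KO library 1 and 0.50 without WT library 1 (adjusted p = 0.0772). Whether more early germ cells in the sorted fraction took part in these rises was not tested.

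Within meiosis, 11 of 20 genes of leptotene to early pachytene were called higher and 3 lower (median 0.30), against 29.8% and 6.3% of all tested genes. Of the 11, 3 reached 1 FPKM in Setd2KO alone, Stra8 among them, and 6 were called higher without Setd2KO library 1 or WT library 1. Of 29 genes of late pachytene and diplotene, 4 were called higher and 4 lower (median -0.12), and the difference between the lists was not tested. The early list held Stra8 above and Tex15, needed for meiotic recombination and transposon silencing, which had 5.69 and 3.40 FPKM in Setd2KO and 1.2 and 1.68 FPKM in WT (0.97) but is far higher in RS (29.6 FPKM in Setd2KO, 41.3 FPKM in WT). Among those called lower, Spo11, which makes the double-strand breaks of recombination, had 33.8 and 38.5 FPKM in Setd2KO and 47.2 and 55.6 FPKM in WT (-0.69, adjusted p = 0.0199), and missed the threshold without Setd2KO library 1 (adjusted p = 0.165) or library 2 (0.0508). Ccdc36, also called Iho1, a partner of the break machinery, had 4.29 and 4.66 FPKM in Setd2KO and 7.40 and 9.18 FPKM in WT (-0.95, adjusted p = 0.00248). In the late list the sperm flagellum gene Spag6 averaged 12.1 FPKM in Setd2KO and 2.80 FPKM in WT (1.61), with RS means of 112 FPKM in Setd2KO and 144 FPKM in WT, and missed the threshold when the RS share was subtracted (0.53, adjusted p = 0.0609).

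Several regulators of the meiotic divisions fell. Aurkc, the Aurora kinase of meiosis, had 8.23 and 6.59 FPKM in Setd2KO and 13.5 and 18.9 FPKM in WT (-1.21, SE 0.16, adjusted p = 0.00121), and its relative Aurkb had 3.44 and 4.35 FPKM in Setd2KO and 7.62 and 8.74 FPKM in WT (-1.10, SE 0.13, adjusted p = 0.000857). Incenp, which binds Aurora kinases in the chromosomal passenger complex, had 6.90 and 7.25 FPKM in Setd2KO and 9.91 and 12.8 FPKM in WT (-0.80), with adjusted p = 0.0519 without Setd2KO library 1. Separase, Espl1, which cuts cohesin at anaphase, had 10.6 and 10.8 FPKM in Setd2KO and 17.5 and 20.0 FPKM in WT (-0.94). The effect differed from that in RS for each of these 4 genes, and Aurkb and Espl1 rose in RS. The Polo kinase Plk1 averaged 7.75 FPKM in Setd2KO and 11.8 FPKM in WT (-0.74, adjusted p = 0.0273), and missed the threshold without Setd2KO library 2 (adjusted p = 0.173), WT library 1 (0.0561) or WT library 2 (0.106). Of the kinetochore and spindle checkpoint list 9 of 37 were called higher and 1 lower (median -0.01), with the inner kinetochore protein Cenph at a mean of 6.32 FPKM in Setd2KO and 2.77 FPKM in WT (0.77) and the checkpoint protein Mad2l1 at 7.91 FPKM in Setd2KO and 4.41 FPKM in WT (0.54, and 0.29 without WT library 2). Of 26 cohesin, condensin and shugoshin genes, 8 were called higher and 2 lower (median -0.01). Over all tested genes 29.8% were called higher and 6.3% lower, so higher calls in these 2 lists were near that share. The falls named above are of single genes.

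The counts of higher calls in gene lists moved by over 1.5 times in 32 of 38 lists when 1 library was left out, and they are read here against 29.8% of all tested genes called higher and 6.3% lower. In the DNA damage response, 15 of 40 genes were called higher and 1 lower, with a median of 0.01. The 1 lower was Rad9a, of the checkpoint clamp, which overlaps Ppp1ca and had 2.08 and 2.03 FPKM in Setd2KO and 3.96 and 3.51 FPKM in WT (-0.82). Brca1 averaged 2.79 FPKM in Setd2KO and 1.34 FPKM in WT (0.50), and missed the threshold after quantile normalization (adjusted p = 0.0770) and when the RS share was subtracted (0.159). Chromatin and RNA regulators mostly kept near the median. Of 20 other histone methyltransferases 4 were called higher and 1 lower (median -0.10), among them the H3K27 methyltransferase Ezh2 with 19.5 and 19.3 FPKM in Setd2KO and 13 and 12.2 FPKM in WT (0.40). Of 12 genes of the DNA methylation machinery 5 were called higher, 3 of which reached 1 FPKM in Setd2KO alone (median 0.10), and of 18 writers, erasers and readers of RNA m6A 8 were (median 0.11), with the reader Ythdf1 at 4.49 and 5.23 FPKM in Setd2KO and 2.66 and 2.75 FPKM in WT (0.47), whereas it fell by 0.56 in RS. Of 36 elongation and termination factors 7 were called higher and 2 lower (median -0.02). The elongation factor Ell2 averaged 3.11 FPKM in Setd2KO and 0.860 FPKM in WT (0.95), but 0.31 when the RS share was subtracted (adjusted p = 0.144). Of 82 splicing factors 25 were called higher and 1 lower (median 0.09), with Snrpe, a core snRNP protein, at 56.3 and 59.2 FPKM in Setd2KO and 28.3 and 37.4 FPKM in WT (0.61) and Hnrnpu at 126 and 122 FPKM in Setd2KO and 78.4 and 71.4 FPKM in WT (0.53). Of 29 nuclear pore genes 7 were called higher and 3 lower, with Nup153 at 31.0 and 29.4 FPKM in Setd2KO and 17.5 and 18.9 FPKM in WT (0.51).

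Imprinted genes, expressed from 1 parental allele in somatic tissue, were called higher in 7 of 11 cases and lower in 1 (median 0.20), against 29.8% and 6.3% of all tested genes. Of the 7, 5 reached 1 FPKM in Setd2KO alone, Peg3 and Dcn among them, so that the count is not support for a rise of the list, and among the 6 genes that reached it in both genotypes 2 were called higher and 1 lower. The adaptor Grb10 had 10.4 and 11 FPKM in Setd2KO and 6.44 and 6.12 FPKM in WT (0.49, adjusted p = 0.00202). The zinc finger gene Peg3 had 1.70 and 1.82 FPKM in Setd2KO and 0.965 and 0.943 FPKM in WT (0.31, adjusted p = 0.000927), and missed the threshold after quantile normalization. Dcn, a matrix proteoglycan of stromal cells, had 1.01 and 2.84 FPKM in Setd2KO and 0.104 and 0.123 FPKM in WT (1.13, 0.68 without Setd2KO library 2 and 0.85 with adjusted p = 0.0546 when the RS share was subtracted), and its interval differed between tables. It was the 1 of 5 stromal marker genes above the filter that was called, and the sum of the 14 stromal markers was 13.2 and 16.4 FPKM in Setd2KO and 11.9 and 11.7 FPKM in WT, with Des and Lum under 0.1 FPKM. The part of stromal RNA in the rise was not tested. The gene called lower was the splicing factor gene Zrsr1, with 1.08 and 1.30 FPKM in Setd2KO and 2.25 and 2.67 FPKM in WT (-0.85), which overlaps Commd1.

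Of 10 MHC class I and antigen presentation genes 3 were called lower and 1 higher (median -0.31), against 6.3% and 29.8% of all tested genes. After H2-K1, the peptide loading chaperone Tapbp had 12.6 and 13 FPKM in Setd2KO and 19.8 and 24.3 FPKM in WT (-0.93), and the disulfide isomerase Pdia3 had 39.6 FPKM in both Setd2KO libraries and 63.6 and 58.4 FPKM in WT (-0.80), with adjusted p = 0.0502 without Setd2KO library 1. Of 29 autophagy genes 8 were called higher and 4 lower (median -0.05). The ubiquitin-like Gabarap, which is joined to autophagosome lipids as Map1lc3a is, had 48.5 and 49.2 FPKM in Setd2KO and 84.1 and 107 FPKM in WT (-1.13), and the lipid scramblase Atg9a had 16.6 and 17.9 FPKM in Setd2KO and 28.5 and 34.3 FPKM in WT (-1.01). Among the autophagy genes called higher, the initiating kinase Ulk1 had 4.49 and 4.79 FPKM in Setd2KO and 2.16 and 1.73 FPKM in WT (0.75).

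Solute carriers outside the mitochondrial family had nearly even calls, 16 higher and 14 lower of 94, with a median of -0.19. After upper-quartile scaling they were 10 and 26, and after quantile normalization 4 and 33. Besides Slc2a8, the sodium-proton exchanger Slc9a5 had 5.23 and 5.56 FPKM in Setd2KO and 16 and 15.1 FPKM in WT (-1.56, SE 0.11, adjusted p = 4.07e-05), and the sodium-calcium exchanger Slc8a2 had 2.65 and 2.84 FPKM in Setd2KO and 6.31 and 6.43 FPKM in WT (-1.17, SE 0.10, adjusted p = 0.000149). The axonemal dynein Dnah10 was the 1 of 29 dynein chains called lower, with 4.48 and 3.94 FPKM in Setd2KO and 12 and 12.3 FPKM in WT (-1.53), against 3 called higher. Among 22 Adam metalloproteases, 10 were called higher, 8 of them spermatid-specific and 9 at 1 FPKM in Setd2KO alone, and 2 lower. The 2 lower were the sperm surface genes Adam18, with 30.1 and 30.7 FPKM in Setd2KO and 54.5 and 66.0 FPKM in WT (-1.15), and Adam1b, with 24.2 FPKM in both Setd2KO libraries and 45.5 and 45.7 FPKM in WT (-1.08). Of 226 zinc finger genes with Zfp symbols 61 were called higher, 24 of which reached 1 FPKM in Setd2KO alone, and 15 lower (median -0.02). Among these Zfp296 fell to 0.232 and 0.282 FPKM in Setd2KO, against 1.5 and 1.44 FPKM in WT (-1.16), and Zfp661 to 5.07 and 5.73 FPKM in Setd2KO, against 9.62 and 12.7 FPKM in WT (-1.11). Of 32 kinesins 4 were called higher, 2 of them spermatid-specific, and 5 lower (median -0.17).

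Calls in mitochondrial and housekeeping lists varied around the share of all tested genes, 29.8% higher and 6.3% lower. Of 75 mitochondrial ribosomal protein genes 29 were called higher and 3 lower (median 0.15), of 79 subunits of oxidative phosphorylation 21 and 1 (median 0.13), of 22 genes of the tricarboxylic acid cycle 10 and 0 (median 0.13), of 43 proteasome genes 12 and 0 (median 0.14), and of 79 cytosolic ribosomal protein genes 10 and 0 (median 0.14). These counts and medians turned on single libraries. The calls over all genes moved with the same libraries, as given above, so 29.8% is no background for counts with a library left out. Without WT library 1 the medians were -0.02 in cytosolic ribosomal protein genes, -0.00 in oxidative phosphorylation, 0.03 in mitochondrial ribosomal protein genes and 0.05 in proteasome genes. Without WT library 2, 66 of the 79 cytosolic ribosomal protein genes, 56 oxidative phosphorylation genes, 48 mitochondrial ribosomal protein genes and 22 proteasome genes were called higher, and without WT library 1, 7, 12, 16 and 4 were. Without Setd2KO library 2, 3 tricarboxylic acid cycle genes were called higher. Among the named members, Mrpl33 averaged 46.0 FPKM in Setd2KO and 26.4 FPKM in WT (0.61), Ndufa4 7.95 FPKM in Setd2KO and 3.75 FPKM in WT (0.73), the proteasome subunit Psma5 28.7 FPKM in Setd2KO and 17.3 FPKM in WT (0.51) and Rps26 126 FPKM in Setd2KO and 72.7 FPKM in WT (0.59). The cycle enzymes Suclg2, at 1.49 FPKM in Setd2KO and 0.513 FPKM in WT (0.53), and Fh1, at 2.55 FPKM in Setd2KO and 1.17 FPKM in WT (0.52, with adjusted p = 0.0693 after quantile normalization), both fell in RS, by 0.92 and 0.81. Falls were found in Mrps34, at 3.09 FPKM in Setd2KO and 7.52 FPKM in WT (-1.25), and in Mrpl24, which overlaps Rrnad1, at 53.8 FPKM in Setd2KO and 91.0 FPKM in WT (-0.93), and both fell in RS as well.

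Fatty acid elongation, the list that holds Tecr, had 7 genes called higher and 2 lower of 18, with a median of -0.11, so Tecr was not typical of it. Acsl1, an acyl-CoA synthetase, had 10.1 and 5.71 FPKM in Setd2KO and 2.44 and 2.91 FPKM in WT (1.04, and 0.67 without Setd2KO library 1), and -0.04 when the RS share was subtracted. In cholesterol synthesis and uptake 7 of 17 were called higher and none lower (median 0.00), with Insig2, a brake on sterol synthesis, at 17.6 and 17.3 FPKM in Setd2KO and 10.3 and 7.84 FPKM in WT (0.69, and 0.45 without WT library 2). Autosomal retrogenes that stand in for X-linked genes silenced in pachytene had 3 called higher and none lower of 15 (median 0.12), and 11 higher without WT library 2. Meiotic transcription regulators had 10 called higher, 5 of which reached 1 FPKM in Setd2KO alone, and 1 lower of 29 (median -0.08). Of 8 histone demethylases outside H3K36, 5 were called higher (median 0.20), of 31 ubiquitin E2 enzymes 11 higher and 2 lower (median 0.09), of 38 ubiquitin-specific proteases 14 higher and none lower (median -0.00), of 64 heat shock and DnaJ genes 8 higher and 4 lower (median -0.05), and of 28 mitochondrial carriers 11 higher and 3 lower (median 0.03). Higher calls in testis gene families were mostly of spermatid-specific members: of 22 Tex genes 10 were called higher but 1 of the 12 that are not spermatid-specific, and of 22 Spata genes 8 but 2 of 14.

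The share of genes called higher varied with the ratio of the WT RS level to the mean of the 4 PD libraries. It was smallest at ratios of 0.5 to 2. This mean holds the tested Setd2KO values, so a rise in Setd2KO lowers the ratio of a gene and can move it to a lower class. The shares by class are therefore a description. Among genes whose level in WT RS was under 0.1 times that of the 4 PD libraries, 53.9% of 514 were called higher and 4.09% lower, and between 0.1 and 0.5 times, 30.9% and 5.73% of 3440. Of 4207 genes of like level in both stages, 0.5 to 2 times, 16.2% were called higher and 9.20% lower. From 2 to 20 times, 46.3% of 1349 were called higher, and at 20 times and over 78.1% of 274.

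The shares also varied with the H3K36me3 mark, the level and the length of the gene, and these differences were not tested. Of the 9320 genes that are not spermatid-specific, 23.4% of 8131 under a PD WT peak were called higher and 7.33% lower, against 46.5% and 8.66% of 1189 with no peak. These 2 classes differ in level, with medians of 9.90 FPKM in Setd2KO and 9.06 FPKM in WT under a peak and 2.02 FPKM in Setd2KO and 1.54 FPKM in WT without one. By level alone, 48.4% were called higher and 9.23% lower under 2 FPKM, where genes that reached 1 FPKM in Setd2KO alone fall, and 7.92% and 2.37% over 100 FPKM. Among genes of 0.5 to 2 times ratio, 14.7% of 3771 with a peak and 29.6% of 436 with no peak were called higher. These groups also differ in level. The medians were 13.5 FPKM in Setd2KO and 13.2 FPKM in WT with a peak, and 2.32 FPKM in Setd2KO and 2.18 FPKM in WT without one. By length, the share called lower was 13.8% up to 3 kb, 12.5% from 3 to 10 kb, 7.22% from 10 to 30 kb, 4.46% from 30 to 100 kb and 2.43% above. The share called higher ran from 19.9% between 3 and 10 kb to 31.7% over 100 kb. Genes with a gene on the other strand were called higher in 18.0% of 1072 cases and the others in 27.5% of 8248. Chromosome 13, which carries the large histone cluster, had 44.7% of 380 called higher and 2.11% lower, and 38.3% of 329 without the histones, whereas chromosome 11 had 17.4% of 783 higher and chromosome 19 had 11.8% of 331 lower.

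**Figure D5:**
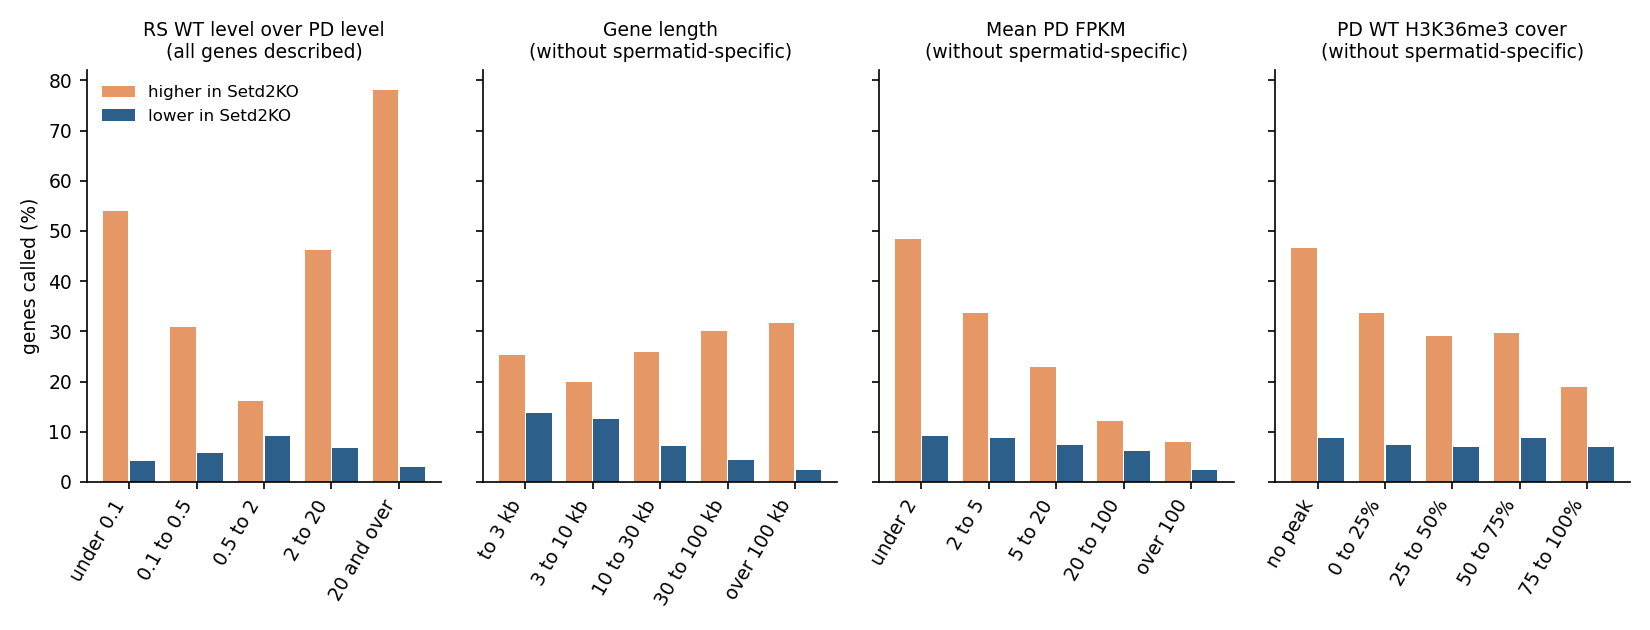
Share of genes called higher and lower in Setd2KO (percent of the class) by the ratio of the WT RS level to the mean of the 4 PD libraries (all 9784 genes). The other panels leave out the spermatid-specific genes and go by gene length, by level and by PD WT H3K36me3 cover of the gene. Higher calls are fewest where the ratio is 0.5 to 2 (16.2%) and lower calls fall with length, to 2.43% over 100 kb against 13.8% up to 3 kb.

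In the ratio of observed to expected CpG, promoters of genes called higher were close to those of genes not called. Those of genes called lower had a smaller ratio, and those of spermatid-specific genes the smallest. RefSeq windows of 300 bases matched 7935 of the 9784 genes (81.1%). The median ratio of observed to expected CpG was 0.81 in 1983 genes called higher, 0.69 in 557 called lower, 0.80 in 5028 not called and 0.20 in 367 spermatid-specific genes. A GC box was in 64.3% of promoters of genes called higher, 62.7% of those called lower, 63.4% of those not called and 22.9% of those of spermatid-specific genes, against 35.9% of all 27025 promoters. The first bases of the cAMP response element (TGACGT on either strand) were in 14.7% of promoters of genes called higher, 8.80% of those called lower, 13% of those not called and 8.17% of spermatid-specific ones, against 7.65% of all. These shares were not tested.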

How the data were processed

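RNA-seq values were used as deposited. They are FPKM, made by the authors with CASAVA, TopHat2, Cufflinks and Cuffdiff on mm9 from directional poly(A) libraries, per the submitters' processing notes and the labels' protocols, and the strand setting of counting is not given in the sources used here. H3K36me3 peaks came as 1 deposited list per group with the authors' score for each peak, made with CASAVA, Bowtie and bedtools per the submitters' processing notes. Per the labels, chromatin of a spike-in was added, and how it was used is not given there.

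Genes were joined by symbol. Genes averaging 1 FPKM or more in any of the 4 groups (11452) were fitted with limma 3.58.1 (R 4.3.3) with an intensity trend on log2(FPKM + 1), with 1 mean per group over 8 libraries, 4 residual and 6.92 prior degrees of freedom. P-values were adjusted by Benjamini-Hochberg over all tested genes, with a threshold of 0.05. The fit was tested on simulated data. Depth was worked back from the value of 1 read in genes with an interval under 1500 bp, where 84.3% to 92.8% of low values came out whole within 0.003 reads. A gene was under a peak when at least 1 base overlapped. Intervals differed between tables for 340 of the 9784 genes, Dcn, Grb10 and Hist1h4n among them, and 25 shared all values with another gene.

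The genes, lists and tests were chosen with earlier results of these data known. Genes were named by rule: Setd2, the 15 largest changes per direction outside the spermatid-specific genes (adjusted p under 0.05, groups apart, at least 5 FPKM in the higher group), the 5 largest rises among spermatid-specific genes, up to 4 called members per function list and up to 4 of the highest per marker list. Genes known only by a clone or model number are not printed, and 1 gene is not reported here. Dmrt1, Hist1h2ba, Hist1h2aa, Hist1h1t, Hist1h1a, Hist1h1c and Hist2h2be were added after their values were seen. Alternatives were other pseudocounts, filters and scalings, PD libraries alone, each library left out, a replicate block and subtraction of each library's median share of the RS level. This share was the median over the spermatid-specific genes, relative to RS of the same genotype. The input libraries were not analysed here.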

Additional observations from a re-analysis of the deposited data

Results flagged for a closer look

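For 51 of the 93 genes named above the Setd2KO effect in spermatocytes differed from that in round spermatids by limma's test of the difference (adjusted p under 0.05). The same test called 31.3% of the 9784 genes and 35.1% of all 11452 tested genes. Many of the named genes were picked by the size of their change in PD, so their count is no measure of the genes at large. The values in brackets are the log2 effect in PD minus that in RS on the deposited scale, on which the all-gene medians were 0.19 in PD and 0.02 in RS. No explanation was weighed.

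Of the genes with the largest falls in PD, the effect was further below that in RS in Arc (-1.29), Slc25a10 (-1.13), H2-K1 (-0.875), Mxra8 (-0.734) and Abhd11 (-0.591). Of the genes with the largest rises, it was above that in RS in Eaf1 (1.75), Xpnpep1 (1.41), Fam208b (1.34), Amy1 (1.12) and Tmem159 (0.548), and below it in Tigd2 (-1.17), which rose further in RS.

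Among histones it was above that in RS in Hist1h3f (1.46), Hist1h4m (1.27), Hist1h4n (1.2), Hist1h1e (1.18), Hist1h1a (1.12), Hist1h1c (0.917) and Hist1h2aa (0.694), and below it in Hist2h2be (-0.929). Of genes far higher in RS than in PD, it was above that in RS in Spag6 (2.18), Spaca1 (2.16), Tmco5 (2.12), Kif2b (2.11), Tex15 (1.62), Acsl1 (1.5) and Ell2 (1.04).

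Among early germ cell genes it was above that in RS in Uchl1 (1.51), Stra8 (0.871), Dmrt1 (0.508) and Dnmt3b (0.446). Among genes of the divisions it was below that in RS in Aurkb (-1.57), Espl1 (-1.19), Plk1 (-0.894), Incenp (-0.796) and Aurkc (-0.764), and above it in Cenph (0.685) and Mad2l1 (0.626).

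Among the other named genes it was above that in RS in Suclg2 (1.63), Fh1 (1.5), Ythdf1 (1.21), Mrpl24 (1.14), Psma5 (0.769), Mrps34 (0.606), Nup153 (0.566) and Peg3 (0.467), and below it in Dcn (-0.974), Rad9a (-0.953), Zfp661 (-0.92), Slc9a5 (-0.632) and Dnah10 (-0.618). For Setd2 the difference was -0.74, with mean levels in RS of 10.4 FPKM in Setd2KO and 5.41 FPKM in WT.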

How the results depend on the processing

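Of the 9784 genes, 2859 were called higher and 703 lower, and of the 9320 that are not spermatid-specific 2458 and 699. Among genes of at least 5 FPKM, 6355 in number, the counts were 1366 and 432, and 1176 and 431 without the spermatid-specific genes; fewer genes were tested. Quantile normalization gave 1408 and 1703 (1088 and 1696), upper-quartile scaling 1289 lower (1284), and equal FPKM sums 1282 lower (1278, with 1622 higher). Subtracting the RS share gave 1567 higher (1536). Leaving out every gene higher in RS WT than in the 4 PD libraries gave 427 lower. Each library left out in turn gave 1701 to 3648 higher and 374 to 1028 lower, or 1288 to 3276 and 368 to 1027 without the spermatid-specific genes. The cause was not tested.

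The 219 genes called at least 2-fold higher numbered 506 at a pseudocount of 0.1 FPKM, 32 at 5 FPKM, 40 after subtraction and 89 to 347 with a library left out, and the 37 that are not spermatid-specific 202, 4, 65 with no filter, 15 among genes of at least 5 FPKM, and 33 to 64. The 164 lower numbered 322 (318 without the spermatid-specific genes), 32 and, with no filter, 106. A pseudocount shrinks or widens the fold of low genes by construction.

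The median change of the genes, 0.19 as deposited, was 0.0710 after upper-quartile scaling, 0.0702 after equal sums, 0.00525 after quantile normalization and 0.0766 after subtraction. When a PD WT peak had to cover at least 50% of the gene, 21.0% were called higher. Kif2b and Acsl1 changed sign after subtraction, at -0.0543 and -0.0372. Replicate numbers did not pair the libraries (correlation of deviations -0.09), and a replicate block gave 2663 higher and 644 lower, with adjusted p = 0.0503 for Plk1 and 0.0508 for Hist2h2be, the only named calls lost under it.

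With 2 libraries per group the precision rests on the spread shared over all 4 groups, and genes near 1 FPKM are limited by depth.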
